A study of Homo sapiens with 6 samples.

Results

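The regions described here are stretches of open chromatin that were listed after RB knockdown and again after androgen treatment, but not in hormone-deprived control cells. They were chosen by the presence or absence of peaks in 3 ATAC-seq peak lists from LNCaP cells. All peaks that overlapped by at least 1 bp were merged across the lists, which gave 21031 regions. A region was kept if it held a peak in shRB CDT and a peak in shCON DHT and none in shCON CDT. That rule kept 1241 regions, 5.90% of all, and they are called joint regions below. They covered 1.36 Mb of the hg19 genome.

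ATAC-seq uses a transposase that inserts sequencing adapters into accessible DNA, so peaks mark promoters, enhancers and other open sites. LNCaP, an established cell line, comes from a human prostate cancer and responds to androgen. The shRB CDT cells carried a hairpin against RB and spent 72 hours in CDT, which the labels equate with a lack of hormone. The shCON DHT group carried a control hairpin and had 72 hours of CDT and 3 hours of the androgen DHT. The shCON CDT group carried the control hairpin and had 72 hours of CDT without DHT. The labels call the shCON and shRB lines isogenic and do not say how many clones each held. RB-depleted cells with DHT were not part of the design, and the level of RB itself is not measured by these files. Each group had 2 libraries, which the authors combined into 1 list. There were 14788 peaks for shRB CDT, 12896 for shCON DHT and 12096 for shCON CDT.

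The retinoblastoma protein RB binds E2F transcription factors and holds back genes of DNA replication and the cell cycle. The androgen receptor is a hormone-bound transcription factor that enters the nucleus with its ligand, binds response elements together with pioneer factors such as FOXA1, and drives the luminal gene program of the prostate. In prostate cancer, loss of RB is known to accompany castration-resistant disease, in which growth continues although androgen is low. Regions listed after either change in the same parental cells are therefore the sites at which the RB and the hormone comparison coincide.

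What chose the joint regions limits what their values show. Of all regions, 5978 (28.4%) had a shRB CDT peak without a shCON CDT peak, and 4538 (21.6%) had a shCON DHT peak without a shCON CDT peak. The joint regions made up 20.8% (95% interval 19.7 to 21.8) of the first set and 27.3% (26.1 to 28.7) of the second. Both sets were defined against the same shCON CDT list, so these shares are a description and no result about a common mechanism. Because a group has only 1 pooled list, its replicate error cannot be estimated, so the text gives no p-values. The intervals are exact binomial intervals for shares and order-statistic intervals for medians. They cover counting error only and treat regions as independent, although neighbouring regions are not. Depth is unknown, and a region that is missing from a list may still have been open below the threshold of that list.

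Most joint regions held 1 peak of each list, with their middles close together. The rule required the 2 peaks to overlap, so their alignment is in part fixed by construction. In 1138 of 1241 regions (91.7%) exactly 1 shRB CDT peak met exactly 1 shCON DHT peak. In 76 regions 1 shRB CDT peak spanned 2 or more shCON DHT peaks, in 23 regions 1 shCON DHT peak spanned 2 or more shRB CDT peaks, and 4 regions held 2 or more of both. Among the 1138 regions with 1 peak each, the middles of the 2 peaks lay a median of 110.5 bp apart (99 to 121), and 90% lay within 332 bp. The narrower peak was wholly inside the wider one in 588 of these regions (51.7%, 48.7 to 54.6). The overlap was below 50% of the narrower peak in 16 regions (1.41%, 0.806 to 2.27). That share was lower, at 0.263% (0.154 to 0.422), in the regions of all 3 lists. It was 1.28% (0.746 to 2.04) for shRB CDT with shCON CDT and 2.84% (1.60 to 4.64) for shCON DHT with shCON CDT. At the regions of all 3 lists, the middles of shRB CDT and shCON DHT peaks were 96 bp apart (92 to 99), and this interval meets that of the joint regions at 99 bp. The 2 other classes of regions that occur in exactly 2 lists had offsets of 103 bp (96 to 112), for shRB CDT with shCON CDT, and 98.5 bp (89 to 114), for shCON DHT with shCON CDT. Their intervals overlap that of the joint regions. Exactly 1 peak of each list was held by 1330 of 1400 and 528 of 565 regions of these classes, in the same order.

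At the joint regions the shRB CDT peak was usually the wider one. Median peak width was 938 bp (915 to 964) in shRB CDT and 737 bp (722 to 755) in shCON DHT. Within a region with 1 peak in each list, the shRB CDT peak was 1.22 times (1.18 to 1.26) as wide as the shCON DHT peak at the median, and it was wider in 798 of 1138 regions (70.1%). Over the whole lists, median peak width was 992 bp in shRB CDT, 937 bp in shCON CDT and 776 bp in shCON DHT, the narrowest. At regions of exactly 2 lists, the ratio was 1.06 (1.04 to 1.08) for shRB CDT over shCON CDT. It was 0.949 (0.898 to 0.981) for shCON DHT over shCON CDT. The ratio of shRB CDT to shCON DHT width was 1.16 (1.16 to 1.17) at the regions of all 3 lists, where the shRB CDT peak was wider in 74.1%. Among regions where neither peak was at the score cap, the ratio was 1.23 (1.18 to 1.27) in 950 joint regions and 1.19 (1.17 to 1.21) in 1879 regions of all 3 lists, with overlapping intervals. Joint regions as a whole had a median width of 1051 bp (1017 to 1078), ranging from 161 to 2953 bp. That lay between the regions of shRB CDT only (700 bp, 683 to 715) or shCON DHT only (479 bp, 469 to 491) and the regions of all 3 lists (1353 bp, 1345 to 1364). A region that joins peaks of more lists is wider in part by construction.

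The deposited score, the authors' own value per peak, ran from 413 to 1000, and 1000 is a cap. Most joint regions held peaks of modest score. The median score was 683 (667 to 702) for their shRB CDT peaks, at the 41.3 percentile of that list, and 596 (585 to 610) for their shCON DHT peaks, at the 38.8 percentile. At the cap stood 171 joint regions in shRB CDT (13.8%, 11.9 to 15.8), against 35.4% of all regions with a shRB CDT peak. In shCON DHT 59 joint regions were at the cap (4.75%, 3.64 to 6.09), against 27.6% of all regions with a shCON DHT peak. Since presence in the lists chose the members and is tied to the score, these values are descriptions.

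The other classes put these scores in place. The shRB CDT peaks of regions shared with shCON CDT alone had a median percentile of 43.7 (42.2 to 45.5), overlapping the 39.7 to 43.1 of the joint regions. The shCON DHT peaks of regions shared with shCON CDT alone stood at 34.1 (31.7 to 36.0), below the 37.2 to 40.7 of the joint regions. Regions listed in shRB CDT only stood at 22.4 (21.7 to 23.0) and regions listed in shCON DHT only at 20.6 (19.9 to 21.3). Peaks at the regions of all 3 lists had medians at the 82.4 percentile, which is the cap, in shRB CDT and at 70.1 in shCON DHT. In rank, joint regions thus lay near the other regions of exactly 2 lists and above the regions of 1 list.

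**Figure D1:**
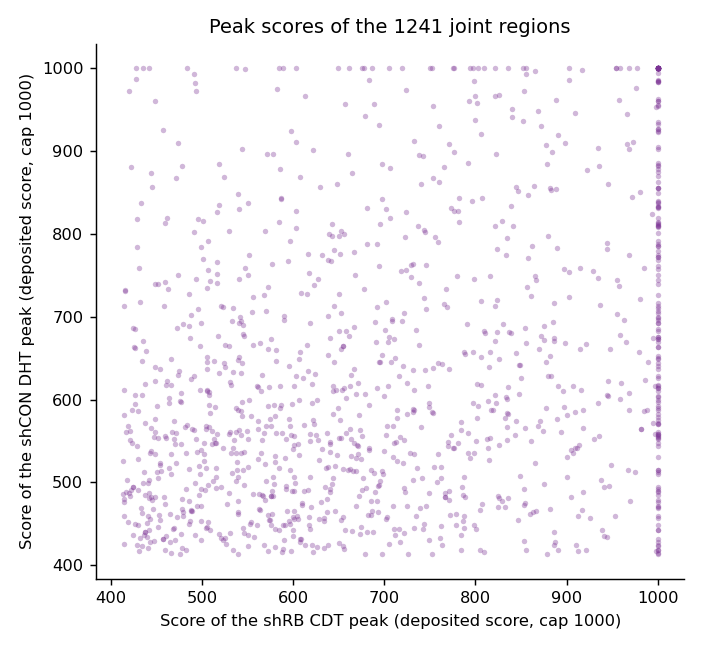
Each point is 1 of the 1241 joint regions, placed by the deposited score of its shRB CDT peak (horizontal, cap 1000) and of its shCON DHT peak (vertical, cap 1000), taking the higher score where a region holds 2 or more peaks of a list. The points are densest at low scores in both lists and reach across the whole field, with 171 regions on the right edge and 59 on the upper edge, 26 of which are in the corner.

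The scores of the 2 lists were positively but loosely related. Across the 1241 joint regions the rank correlation of the 2 scores was 0.28 (Spearman), given as a description, since the points share 2 lists and many are tied at the cap. It was 0.49 over the 7149 regions of all 3 lists, 0.31 over the 1400 regions of shRB CDT with shCON CDT, and 0.20 over the 565 regions of shCON DHT with shCON CDT. Both peaks were at the cap in 26 joint regions, only the shRB CDT peak in 145, only the shCON DHT peak in 33 and neither in 1037. Both peaks ranked in the upper 50% of their list in 202 regions (16.3%), and both in the lower 50% in 598 (48.2%). In the rest the lists differed, with 241 regions in the upper 50% of shRB CDT only and 200 in the upper 50% of shCON DHT only. The shRB CDT percentile was the higher one in 650 regions and the lower one in 591, and 75 regions (6.04%) differed by more than 50 percentiles.

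The share of joint regions rose with peak score in both lists. Among regions absent from shCON CDT with a shRB CDT score under 500, 208 of 2172 were joint (9.58%, 8.37 to 10.9). At scores from 600 to under 700 they were 214 of 934 (22.9%, 20.3 to 25.7), and at the cap 171 of 269 (63.6%, 57.5 to 69.3). Ranked by shCON DHT score instead, the joint regions were 316 of 2095 (15.1%, 13.6 to 16.7) under 500, 224 of 537 (41.7%, 37.5 to 46.0) from 600 to under 700 and 59 of 77 (76.6%, 65.6 to 85.5) at the cap. Every step from one band of score to the next was upward in both lists. Presence in a list is tied to score and chose the members, so the rise is a description. At the shRB CDT cap, 247 regions were shared with shCON CDT alone and 98 were in shRB CDT only. Over all scores these counts were 1400 and 4737. At the shCON DHT cap, 32 were shared with shCON CDT alone and 18 were in shCON DHT only, against 565 and 3297. A rise toward the cap was thus not particular to the joint regions. Relative to the whole lists the picture differed, because most high-scoring regions also had a shCON CDT peak. The joint regions made up 7.99% of shRB CDT regions under 500, 14.2% from 700 to under 800 and 3.32% at the cap, and 11.7%, 12.7% and 1.74% of shCON DHT regions in the same bands.

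**Figure D2:**
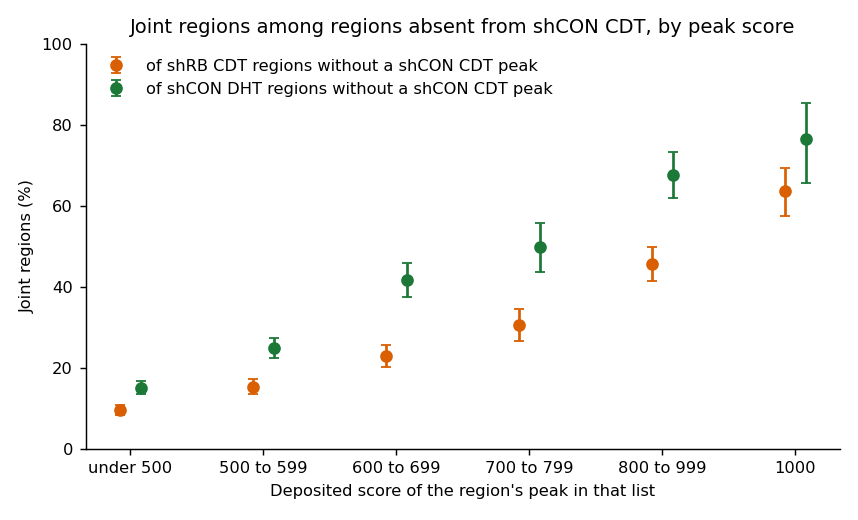
Joint regions as a percentage (vertical) of the regions absent from shCON CDT, by the band of deposited score (horizontal), for shRB CDT scores and shCON DHT scores. Points are shares and bars are exact 95% binomial intervals. The share climbs to 63.6% in shRB CDT and 76.6% in shCON DHT at the cap of 1000.

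Joint regions with the highest scores in both lists were named by a fixed rule, which ranks regions by the lower of their 2 score percentiles and breaks ties by width. The 5 highest all had scores of 1000 in both lists. As 26 joint regions had these scores, the 5 were set apart by width alone. The first lay on chromosome 7 from 138665590 to 138667299, where a shRB CDT peak of 1549 bp met a shCON DHT peak of 1197 bp, and the nearest shCON CDT peak was 125.8 kb away. The second lay on chromosome 14 from 31889109 to 31890212, with peaks of 1026 bp in shRB CDT and 1085 bp in shCON DHT, 35.7 kb from a shCON CDT peak. These 2 sites had 3 regions of all 3 lists within 500 kb. The third, on chromosome 19 from 1812007 to 1813299, stood in far denser surroundings, with 19 such regions and 4 other joint regions within 500 kb. The fourth, on chromosome 19 from 37463435 to 37465183, was a shRB CDT peak of 1749 bp over 2 shCON DHT peaks and had 13 regions of all 3 lists nearby. The fifth lay on chromosome 7 from 73152595 to 73153764, 18.5 kb from the nearest shCON CDT peak. All 5 positions are hg19.

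At the other end, the lowest-ranked joint regions were weak in both lists. The region on chromosome 11 from 16812210 to 16812873 scored 415 in shRB CDT and 426 in shCON DHT. The region on chromosome 21 from 33941551 to 33942301 scored 431 and 417, in the same order of lists, and the region on chromosome 3 from 127391458 to 127392455 scored 429 and 424. Just outside the rule were regions of all 3 lists whose shCON CDT peak barely entered its list. The weakest of these lay on chromosome 1 from 115258677 to 115259830, with scores of 522 in shRB CDT, 470 in shCON DHT and 413 in shCON CDT. On chromosome 1 from 150459602 to 150460338 the scores were 1000 in shRB CDT, 683 in shCON DHT and 413 in shCON CDT. On chromosome 1 from 10002857 to 10003674 they were 968 in shRB CDT, 969 in shCON DHT and 414 in shCON CDT. In all, 378 of the 7149 regions of all 3 lists (5.29%, 4.78 to 5.83) had a shCON CDT score under 500.

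Few joint regions were near misses of a shCON CDT peak. Their median gap to the nearest one, edge to edge, was 47.1 kb (42.9 to 51.5), with quartiles of 18.8 and 113 kb. Only 18 joint regions (1.45%, 0.862 to 2.28) lay within 500 bp of a shCON CDT peak, against 166 regions of shRB CDT only (3.50%, 3.00 to 4.07) and 97 regions of shCON DHT only (2.94%, 2.39 to 3.58). The interval of the joint regions does not overlap those of the others. In all 3 classes, however, a region that overlapped a shCON CDT peak was left out by definition. Joint regions were also wider, with a median of 1051 bp against 700 bp for shRB CDT only and 479 bp for shCON DHT only. The comparison is thus a description, and a part of width in it was not tested. The 3 nearest were on chromosome 15 from 78591403 to 78591623, with a gap of 16 bp, on chromosome 4 from 83413136 to 83413403, with a gap of 25 bp, and on chromosome 1 from 1624154 to 1624457, with a gap of 57 bp. All 3 were narrow, at 221, 268 and 304 bp.

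At larger distances, over all scores, the joint regions were as close to shCON CDT peaks as the regions of shRB CDT only, and closer than those of shCON DHT only. The median gap was 52.8 kb (50.004 to 55.7) for shRB CDT only, overlapping that of the joint regions, and 77.0 kb (72.4 to 81.4) for shCON DHT only. By shCON DHT score, joint regions had the shorter median gap in each band below the cap. At the cap it was 60.0 kb for 59 joint regions and 56.3 kb for 18 regions of shCON DHT only. By shRB CDT score, the gap of joint regions was shorter in each band under 800 and longer from 800 up. At that cap it was 38.0 kb for joint regions and 18.7 kb for shRB CDT only. Within 100 kb of a shCON CDT peak lay 71.6% (69.0 to 74.1) of joint regions, 67.8% (66.4 to 69.1) of regions of shRB CDT only and 57.4% (55.7 to 59.1) of regions of shCON DHT only. Beyond 500 kb lay 49 joint regions (3.95%, 2.94 to 5.19), 187 regions of shRB CDT only (3.95%, 3.41 to 4.54) and 291 of shCON DHT only (8.83%, 7.88 to 9.85). The 2 most remote joint regions were both on chromosome X, from 90689472 to 90690185 with a gap of 9616 kb and from 95939384 to 95940706 with a gap of 4366 kb. The next was on chromosome Y from 2803360 to 2804324, with a gap of 4337 kb. No region of all 3 lists was within 500 kb of any of these.

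**Figure D3:**
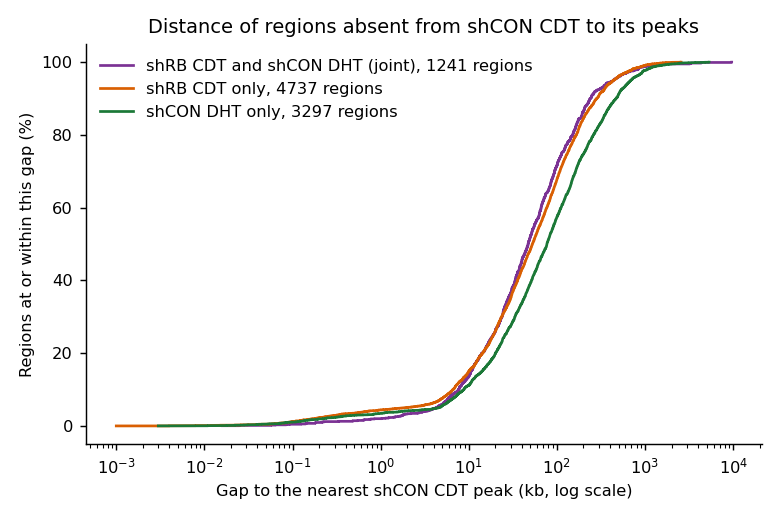
Percentage of regions (vertical) whose edge lies at or within a given gap of the nearest shCON CDT peak (horizontal, kb, log scale), for the joint regions, the regions of shRB CDT only and the regions of shCON DHT only, with directly adjoining regions drawn at the left end of the axis. The curve of the joint regions runs lowest below 1 kb and then alongside that of shRB CDT only, with medians of 47.1 and 52.8 kb, while shCON DHT only lies to the right at 77.0 kb.

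The rule did not use position along the genome, but the surroundings are measured with the same 3 lists that chose the joint regions, so they are a description. The regions of all 3 lists served as landmarks of commonly open chromatin. Joint regions had a mean of 5.24 such landmarks within 500 kb (SD over regions 4.48, 1241 regions), near the 5.16 (SD 4.22) of the landmarks themselves and the 4.998 (SD 4.07) of regions shared by shRB CDT and shCON CDT. The mean was 4.68 (SD 4.26) for regions shared by shCON DHT and shCON CDT, 4.51 (SD 3.87) for shRB CDT only and 3.47 (SD 3.49) for shCON DHT only. The standard errors of these means, which treat regions as independent, were 0.127 for joint regions, 0.0563 for shRB CDT only and 0.0608 for shCON DHT only. Single regions of all classes overlapped widely. No landmark lay within 500 kb of 117 joint regions (9.43%, 7.86 to 11.2), compared with 10.6% (9.71 to 11.5) of shRB CDT only and 18.3% (17.0 to 19.7) of shCON DHT only. The share was 9.21% (7.75 to 10.9) for shRB CDT with shCON CDT and 12.2% (9.63 to 15.2) for shCON DHT with shCON CDT.

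Score moved with this measure, so the comparison was repeated within bands of score. Joint regions with a shCON DHT score under 500 had a mean of 4.71 landmarks (SE 0.248, 316 regions), against 3.16 (SE 0.0760, 1779 regions) for shCON DHT only. From 700 to under 800, where they differed most, the means were 5.88 (SE 0.405) for joint regions and 4.08 (SE 0.310) for shCON DHT only. Below the cap the means were nearest from 600 to under 700, at 5.41 (SE 0.301) and 4.30 (SE 0.229). At the cap they were 5.19 (SE 0.642, 59 regions) and 4.94 (SE 0.955, 18 regions), closer than their errors. Set against shRB CDT only the gap was smaller, at 5.04 (SE 0.337) and 4.27 (SE 0.0834) under 500, and it was absent at the cap, where joint regions had 6.05 (SE 0.345) and shRB CDT only had 6.18 (SE 0.487).

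Seen from the surroundings, joint regions formed a growing part of the shCON DHT regions absent from shCON CDT as commonly open sites became denser. They were 117 of 721 (16.2%, 13.6 to 19.1) where no landmark lay within 500 kb, 426 of 1441 (29.6%, 27.2 to 32.0) with 3 to 5 landmarks, and 189 of 403 (46.9%, 41.9 to 51.9) with 10 or more. The increase was present at shCON DHT scores under 600, with 12.4% (9.89 to 15.4) at no landmark and 35.3% (29.4 to 41.6) at 10 or more, and at scores of 600 or more, with 34.1% (25.9 to 43.1) and 66.2% (58.1 to 73.7). Of the shRB CDT regions absent from shCON CDT, joint regions were 18.9% (15.9 to 22.2) without a landmark and 26.5% (23.3 to 30.0) with 10 or more. Within bands of shRB CDT score the intervals at the 2 ends overlapped, at 11.7% (8.84 to 15.2) and 14.2% (10.9 to 18.1) under 600 and at 34.9% (28.2 to 42.1) and 41.1% (35.7 to 46.7) at 600 or more.

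The same direction was seen with the other list as partner. Of shCON DHT regions absent from shRB CDT, those listed in shCON CDT made up 10.3% (8.06 to 12.8) without a landmark and 24.4% (19.5 to 29.8) with 10 or more. Of shRB CDT regions absent from shCON DHT, those listed in shCON CDT made up 20.5% (17.4 to 23.8) and 27.8% (24.5 to 31.2). The rise with density is thus seen for shCON DHT regions whichever list they are shared with, and is not shown to be particular to the joint regions.

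**Figure D4:**
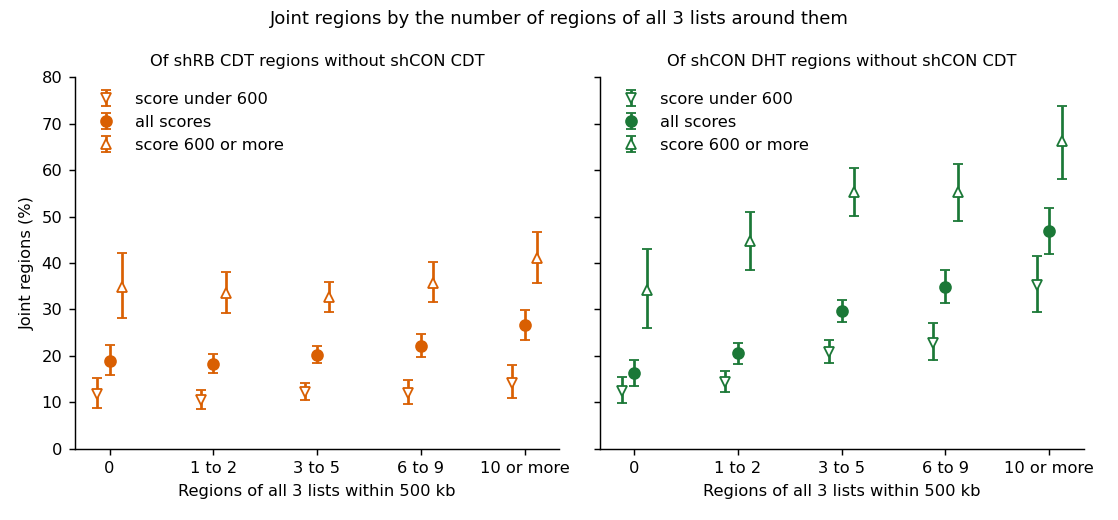
Joint regions as a percentage (vertical) of the shRB CDT regions absent from shCON CDT (left) and of the shCON DHT regions absent from shCON CDT (right), by the number of regions of all 3 lists within 500 kb (horizontal). Filled circles are all scores, open triangles are scores under 600 (pointing down) and of 600 or more (pointing up), and bars are exact 95% binomial intervals. The right panel climbs to 46.9% over all scores, the left to 26.5%.

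Chromosome X carried more joint regions than its number of regions would give at the overall share of 5.90%. On X 41 of 387 regions were joint (10.6%, 7.71 to 14.1). Chromosome 19 followed with 94 of 1242 (7.57%, 6.16 to 9.18). Chromosome 9, with 39 of 933 (4.18%, 2.99 to 5.67), and chromosome 21, with 8 of 271 (2.95%, 1.28 to 5.73), lay below. For the other 20 of 24 chromosomes the interval included 5.90%. With 24 intervals of this kind examined and neighbouring regions not independent, an interval that narrowly misses 5.90%, as on chromosomes 19, 9 and 21, carries little weight.

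**Figure D5:**
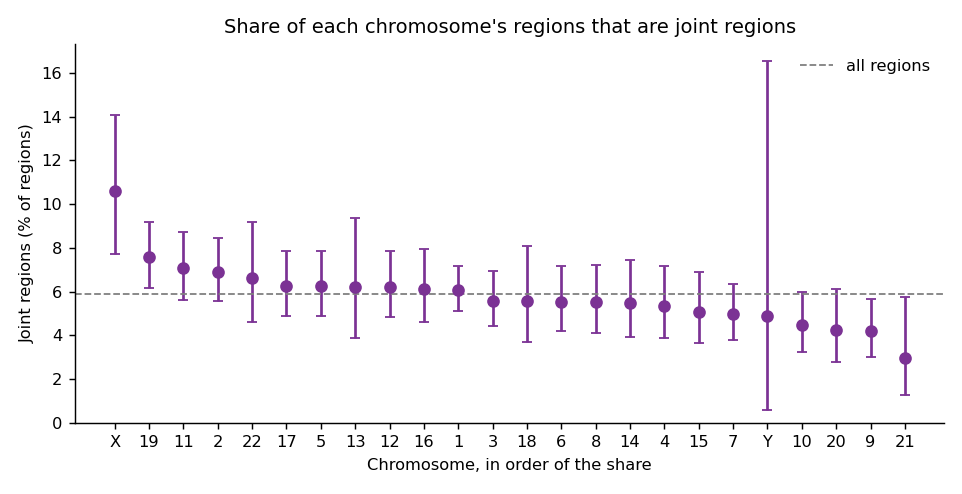
Percentage of each chromosome's regions that are joint regions (vertical), with chromosomes ordered by that share (horizontal). Points are shares, bars are exact 95% binomial intervals, and the dashed line is the share of 5.90% over all regions. Chromosome X, at 10.6%, and chromosome 19, at 7.57%, have intervals wholly above the line, and chromosomes 9 and 21 have intervals wholly below it.

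On chromosome X the joint regions were spread along the chromosome. They ran from position 7065483 to 153719519, fell in 14 windows of 10 Mb with at most 5 in any window, and had median percentiles of 38.0 (24.7 to 50.9) in shRB CDT and 34.9 (26.9 to 47.5) in shCON DHT, inside which the genome-wide medians of 41.3 and 38.8 lie. At the cap were 5 of the 41 in shRB CDT and 1 in shCON DHT. Their median gap to a shCON CDT peak was 175 kb (54.9 to 498), wider than the 47.1 kb of all joint regions, and their mean number of landmarks within 500 kb was 2.10, against 2.69 for the other regions of X. Of the shRB CDT regions on X that were absent from shCON CDT, 41 of 94 were joint (43.6%, 33.4 to 54.2), and of the shCON DHT regions 41 of 113 (36.3%, 27.4 to 45.9). At shRB CDT scores under 600 the share was 32.7% (19.9 to 47.5) on X and 11.6% (10.6 to 12.7) on the other chromosomes, and at 600 or more it was 55.6% (40.0 to 70.4) and 34.4% (32.5 to 36.4). By shCON DHT score the intervals overlapped in both bands, with 29.1% (19.4 to 40.4) on X and 18.5% (17.2 to 19.9) elsewhere under 600, and 52.9% (35.1 to 70.2) and 52.1% (49.1 to 55.0) at 600 or more. Among the 202 joint regions in the upper 50% of both lists, 5 were on X. With the shRB CDT and shCON DHT lists cut to their upper 50% and shCON CDT kept whole, the share on X was 1.87% (0.611 to 4.32), against 1.53% of all regions. That value rests on 5 of 267 regions, and its interval includes both 1.53% and larger shares. Regions of shRB CDT only were fewer on X, at 13.7% (10.4 to 17.5) against 22.5% of all regions, and so were regions of shCON CDT only, at 7.75% (5.29 to 10.9) against 12.6%. Regions shared by shCON DHT and shCON CDT were more frequent on X, at 4.65% (2.78 to 7.25) against 2.69%, an interval that narrowly misses the overall share. Those shared by shRB CDT and shCON CDT stood at 7.24% (4.86 to 10.3) against 6.66%. A raised share on X is thus not shown to be particular to the joint regions.

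Chromosome 19, a gene-rich chromosome with large families of zinc finger genes, differed from X in its layout. Its 94 joint regions had a median gap of only 21.0 kb (16.6 to 24.9) to a shCON CDT peak and a mean of 10.5 landmarks within 500 kb (SD 5.42), against 10.2 for the other regions of the chromosome. They made up 41.0% (34.6 to 47.7) of its shCON DHT regions absent from shCON CDT, above the 27.3% of the whole genome, and 26.6% (22.1 to 31.6) of its shRB CDT regions absent from shCON CDT, against 20.8%. Regions of shCON DHT only were fewer on chromosome 19, at 10.9% (9.19 to 12.7) against 15.7% of all regions. Regions of all 3 lists were more frequent, at 38.8% (36.1 to 41.6) against 34.0%. Those shared by shRB CDT and shCON CDT stood at 7.65% (6.23 to 9.27) against 6.66%. A raised share on chromosome 19 is thus not shown to be particular to the joint regions. Without chromosome 19 the mean number of landmarks around joint regions was 4.81, still above the 4.18 of shRB CDT only and the 3.24 of shCON DHT only. On the gene-poor chromosomes 4, 13 and 18 together, 89 of 1589 regions were joint (5.60%, 4.52 to 6.85). Within 3 Mb of the start or the last listed peak of a chromosome, 132 of 2201 were joint (5.997%, 5.04 to 7.07). Both intervals include the overall 5.90%.

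Joint regions stood in short runs at some places. No other joint region lay within 500 kb of 46.0% (43.2 to 48.8) of them. Linked at distances of up to 100 kb, 235 of 1241 (18.9%, 16.8 to 21.2) stood in runs of 2 or more, with 87 runs of 2, 12 of 3, 5 of 4 and 1 of 5. Runs were not counted for the other classes, so standing in runs is not shown to be particular to the joint regions. The longest run spanned 217 kb on chromosome 1. Its members lay from 161283679 to 161284496, from 161284541 to 161284779, from 161369003 to 161370343, from 161409174 to 161410631 and from 161500499 to 161501174. Their shRB CDT scores were 587, 587, 644, 1000 and 544, and their shCON DHT scores were 843, 842, 617, 415 and 597, so no member was high in both lists. The first 2 members lay within 500 bp of each other with nearly equal scores, and may be parts of 1 site. The 217 kb span also held 2 regions of shRB CDT only and 2 regions of all 3 lists. In windows of 1 Mb, 593 of the 852 windows with a joint region held 1, and 7 windows held 5 or more. The fullest held 6 joint regions, on chromosome 1 from 1000001 to 2000000 (among 42 regions) and from 161000001 to 162000000 (among 27), on chromosome 8 from 144000001 to 145000000 (among 37), on chromosome 12 from 56000001 to 57000000 (among 31) and on chromosome 19 from 52000001 to 53000000 (among 24).

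The joint regions were also compared by the rank of their 2 peaks. Median region width was 1073 bp (1003 to 1143) where both peaks ranked in the upper 50% of their list and 1051.5 bp (1004 to 1087) where both ranked in the lower 50%. The shRB CDT peak was the wider one in each group, with median ratios of 1.21 (1.14 to 1.31) in the first and 1.24 (1.18 to 1.30) in the second. The mean number of landmarks within 500 kb was 5.93 (SD 4.52) in the first and 4.74 (SD 4.34) in the second. It was 5.43 (SD 4.35) where only the shRB CDT peak ranked in the upper 50%, and 5.805 (SD 4.84) where only the shCON DHT peak did. No landmark was found around 5.45% (2.75 to 9.53) of the first and 11.5% (9.09 to 14.4) of the second, whose intervals overlap slightly. The median gap to a shCON CDT peak was 48.3 kb (37.0 to 58.0) in the first and 55.9 kb (48.4 to 65.4) in the second. The gap was 43.3 kb (35.2 to 52.1) with only the shRB CDT peak in the upper 50%. It was shortest of the 4 groups, at 35.6 kb (29.1 to 43.8), with only the shCON DHT peak there. That interval lies below the one of the group with both peaks in the lower 50%. It overlaps those of the remaining groups, so the order among them is not resolved.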

How the data were processed

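ATAC-seq was run on 6 libraries in 3 groups of 2, and the authors deposited 1 peak list per group. Per the labels, each list combines replicates 1 and 2, was thresholded at an irreproducible discovery rate (IDR) of 0.1, and was filtered, merged and scored. Coordinates are hg19 (submitters' processing notes). How reads were aligned, filtered and shifted, and how peaks were called, is not given in the sources used here. The deposited score is a whole number per peak whose scaling is not stated, used here only for ranks and bands within a list. Nothing in the labels says whether replicates came from separate cultures.

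Overlaps, gaps and counts were computed with scipy 1.17.1, pandas 2.3.3 and numpy 2.4.6 under Python 3.11.15, and drawn with matplotlib 3.10.9. Tested on simulated lists, the code passed 6 of 6 checks. Classes and runs were compared with planted answers, and gaps and neighbour counts with a direct recount. The simulated peaks were of equal width and overlapped closely, so regions with several peaks of a list were not covered. Score percentiles are mid-ranks within a list. A region with several peaks of a list takes their highest score. Gaps run from edge to edge, and windows from middle to middle. Positions are counted from 1. Named regions were the 5 with the highest lower-of-2 percentile, the 3 farthest from and the 3 nearest to a shCON CDT peak, the 3 of lowest summed percentile, the longest run, and 3 regions just outside the rule. The regions and these rules were chosen with earlier results of these data known. The score bands on chromosome X, the score bands used for the surroundings and the gaps, and the look at chromosomes X and 19 apart and at the surroundings without chromosome 19 were chosen after the values were seen. Promoters, genes and DNA sequence at the regions were not analysed here, because the reference tables at hand are of another build (GRCh38).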

Additional observations from a re-analysis of the deposited data

How the results depend on the processing

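Of the alternative values, 35 stayed within the interval of the value reported (or, for the number of joint regions, within 1.5 times), and 31 moved. Some moves were fixed by the setting. Landmarks within 100 kb or 1 Mb, and runs at 50 or 200 kb, were set against the interval of the main distance. Percentiles in lists cut to their top 50% had to rise. The tally is thus no measure of stability. In what follows, shares are joint regions among shRB CDT and then shCON DHT regions absent from shCON CDT, percentiles are those of the full shRB CDT and then shCON DHT lists, and landmarks are the mean number of regions of all 3 lists within 500 kb. With a 50% reciprocal overlap the shares were 16.7% and 19.3%, the percentiles 44.2 and 41.6, the gap to a shCON CDT peak 36.8 kb, the landmarks 4.82 and the width ratio 1.14. In the top 50% of each list the shares were 37.3% and 49.6%, the percentiles 82.4 and 66.5, the gap 84.1 kb, the landmarks 3.06 and the width ratio 1.17. There the shCON CDT list was also shortened, so that 888 regions met the rule but only 202 joint regions of the full lists were among them. With all lists kept to 12096 peaks, 979 regions met the rule, the shares were 25.8% and 24.9%, so their order turned, and the percentiles were 46.6 and 41.8. With only shRB CDT and shCON DHT cut to their top 50%, 202 regions met the rule, the shares were 22.6% and 29.7%, the percentiles 63.8 and 65.6, the landmarks 3.94, and the share on chromosome X fell to 1.87%, against 1.53% of all regions. In these cut lists fewer peaks were kept by construction. With peaks reset to 500 bp the second share was 25.8%. Landmarks within 100 kb averaged 1.17, within 1 Mb 9.46, and without chromosome 19 4.81. Runs held 9.75% of joint regions at 50 kb and 32.8% at 200 kb. On chromosome X the share was 7.73% with reciprocal overlap, against 4.75% of all regions, 8.96% with lists of equal length, against 5.29%, and 11.4% (7.46 to 16.5) in the top 50% of each list, against 9.61%, which lies inside that interval. Joint regions had more landmarks than shRB CDT only in every setting except the top 50% of each list, where the means were 3.06 and 3.10. The width ratio has no value with reset peaks, nor has chromosome X with autosomes only. No paired analysis was possible because the authors combined both replicates of a group, which also means that neither could be omitted. Planned comparisons of promoters, genes and sequence were not run, since they need a reference of the hg19 build.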

Other observations

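The 18 joint regions within 500 bp of a shCON CDT peak had a median width of 759.5 bp (95% interval 457 to 1215), against 1053 bp (1019 to 1080) for the 1223 farther ones. Their median percentiles were 49.2 (30.1 to 82.4) in shRB CDT and 47.2 (34.3 to 56.6) in shCON DHT, against 41.3 (39.6 to 43.1) and 38.5 (37.0 to 40.4) for the farther ones. The shortest width found in any list is 150 bp, and 1 of the 18 held a peak of that width.

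No other joint region lay within 500 kb of 46.0% (43.2 to 48.8) of joint regions. No joint region lay within 500 kb of 48.8% (47.6 to 49.97) of regions of all 3 lists, 52.7% (51.2 to 54.1) of shRB CDT only and 61.0% (59.3 to 62.6) of shCON DHT only. The share was 47.9% (45.2 to 50.5) for shRB CDT with shCON CDT, overlapping that of the joint regions, and 52.6% (48.4 to 56.7) for shCON DHT with shCON CDT.

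Near chromosome ends, within 3 Mb of the start or the last listed peak, lay 10.6% (8.98 to 12.5) of joint regions, 13.1% (12.1 to 14.1) of shRB CDT only, 7.58% (6.70 to 8.54) of shCON DHT only, 13.2% (11.9 to 14.5) of shCON CDT only and 9.09% (8.44 to 9.78) of regions of all 3 lists. The share was 10.6% (9.08 to 12.4) for shRB CDT with shCON CDT and 9.38% (7.11 to 12.1) for shCON DHT with shCON CDT.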
